A study of Mus musculus with 6 samples.

Results

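Atrial identity genes are genes whose transcripts mark the muscle of the heart's upper chambers. The 10 followed here are Myl4, Myl7, Sln, Mybphl, Mlana, Dkk3, Fgf12, Tmem163, Bmp10 and Hamp. They are read by 16 of the 38195 probe sets tested, and 10 of the 18029 genes with a probe set of a single symbol. They were chosen from the measured values, as genes of atrial identity with high signal on 1 array, knockout replicate 1, so that array's signal is given as a description and not tested. RNA came from the hearts of 6 mice on a C57BL/6 background, 3 labelled Tmbim1 KO and 3 labelled as Flox wild type, with 1 Affymetrix array per mouse. All 6 mice, 8 weeks old per the series text, had aortic surgery that the labels spell as binding, read here as banding (constriction of the aorta), 2 weeks before the hearts were taken. How the deletion was made, in which cells, and whether the groups were littermates are not given in the sources used here. Hearts without banding were not analysed here.

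The atria receive blood and the ventricles pump it out, and their muscle cells build related but different contractile and calcium handling proteins. In the adult mouse the light chains of atrial myosin, MYL4 and MYL7, take the place of the ventricular MYL3 and MYL2, and sarcolipin (Sln) is a small atrial regulator of the calcium pump that phospholamban regulates in the ventricle. Atrial muscle also secretes hormones and growth factors, such as the natriuretic peptide of Nppa and, from the right atrium, BMP10. In bulk tissue, fewer cells of a type and less RNA per cell cannot be told apart.

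The values are deposited log2 signals per probe set, so a step of 1 is a doubling. The medians of the arrays lay between 4.24 and 4.28, and pairs of arrays correlated at 0.989 to 0.996 over all probe sets. Tmbim1 stood at 7.53, 7.49 and 7.56 in the knockout hearts and at 8.58, 8.38 and 8.33 in the wild type hearts. Knockout minus wild type was -0.91 (SE 0.10, limma adjusted p = 0.00579). Knockout replicate 1 is at the knockout level of Tmbim1, and without it the estimate was -0.91 (SE 0.12, limma adjusted p = 0.0330), a call that was lost when any further array was left out (limma adjusted p = 0.0607 to 0.786). Leaving out knockout replicate 2 alone also ended the call (limma adjusted p = 0.0512). Muscle genes used by both chambers were bright on all arrays, among them Actc1 (13.57 on knockout replicate 1) and Tnni3 (12.89), 2 defining genes of the labelled tissue that are outside the naming rule. The atrial genes were not bright on the other 5 arrays, where most of the 16 probe sets lay in the lower or middle part of the array's distribution.

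Knockout replicate 1 stood above every other array at all 16 probe sets, and by at least 1 on the log2 scale at 15. Over all probe sets that array stood at least 1 above every other one at 52, or 0.136%, and above every other one by any amount at 15.4%. The other knockout arrays had 3 such probe sets each, and the wild type arrays had 2, 7 and 5. Knockout replicate 1 stood at least 1 below every other array at 0 probe sets, while wild type replicate 3 did so at 74. When genes were ordered by how far knockout replicate 1 exceeded the highest of the other 5 arrays, without predicted genes, the members took ranks 1 to 8, 19 (Hamp) and 34 (Bmp10). Bmp10, at 1.07, is the member nearest to a margin of 1 from above, and the second probe set of Myl4, at 0.69, is the 1 below it.

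**Figure D1:**
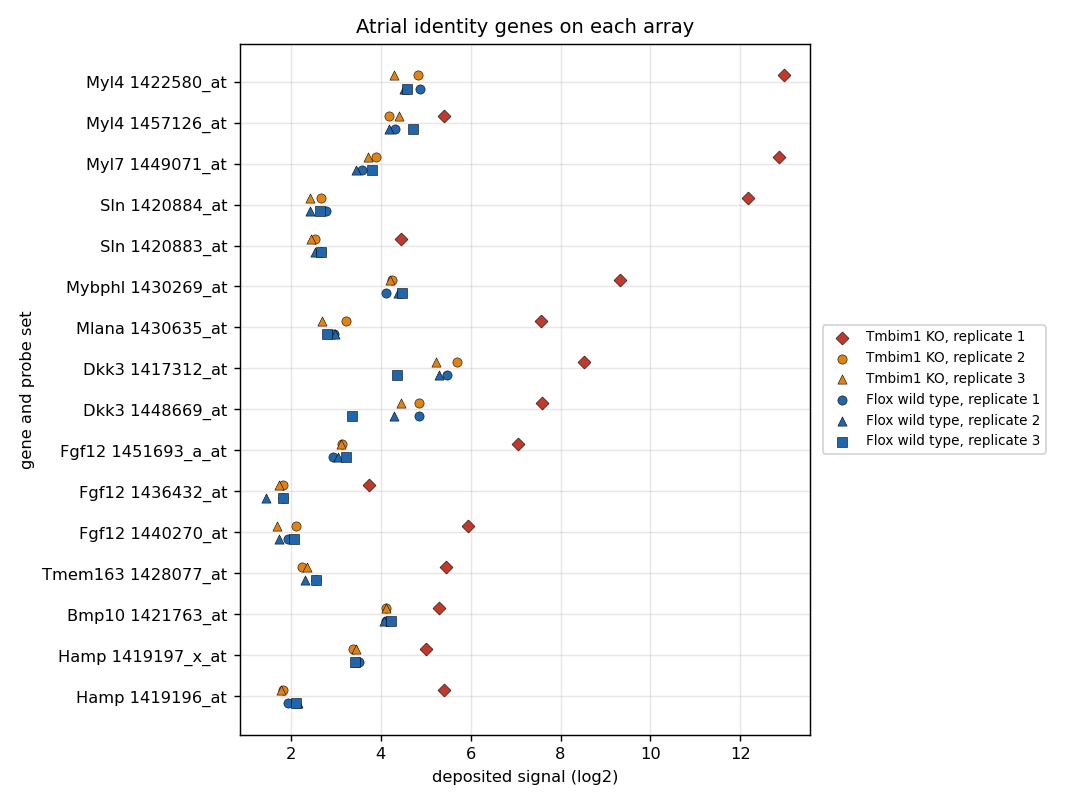
Deposited log2 signal (x axis) of the 16 probe sets of the 10 atrial identity genes (y axis) on each of the 6 arrays, with knockout arrays on the upper line of each row and wild type arrays on the lower. The red diamond, knockout replicate 1, lies right of every other point in each row, by 0.69 at the second Myl4 probe set to 9.40 at Sln.

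Because the members were high together on 1 array, their promoter sequences were read from RefSeq on GRCm38.p6, as windows of 300 bases from 250 before to 50 after each annotated start. Of the 10 members 7 had a window, with 10 windows in all since Fgf12 has several starts. Each was searched on both strands for letters bound by cardiac transcription factors. These were NGATAA for GATA factors, AGGTGT for T-box factors, AGGTCA for nuclear receptors such as COUP-TF, TNAAGTG for NKX2-5, and the MEF2 consensus. GATA letters were in the windows of 4 of the 7, Myl7, Mybphl, Bmp10 and Hamp, and in 25.3% of all 32851 windows. T-box letters, nuclear receptor letters and the MEF2 consensus were each found for 1 member, Fgf12 (13.7%, 16.3% and 3.19% of all windows), and NKX2-5 letters for 0 (11.5%). No match overlapped one of another motif, and the MEF2 match reads on both strands. The windows of Myl4 and Tmem163 held none of these letters, which says only that they are absent from these bases. The 4 windows with GATA letters are shown 5′ to 3′ along the gene, with the GATA match in capitals. It begins at -42 from the start for Myl7, at -141 for Mybphl, at -219 and -33 for Bmp10, and at -128 for Hamp, where it is read on the opposite strand.
Myl7 (chr11:5898733-5899032, minus strand): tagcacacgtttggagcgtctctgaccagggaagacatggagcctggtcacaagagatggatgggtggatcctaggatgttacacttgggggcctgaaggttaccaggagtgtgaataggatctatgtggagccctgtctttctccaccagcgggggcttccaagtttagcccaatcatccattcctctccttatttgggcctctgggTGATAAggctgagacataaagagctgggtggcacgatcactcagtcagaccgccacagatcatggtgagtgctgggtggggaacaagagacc
Mybphl (chr3:108364661-108364960, plus strand): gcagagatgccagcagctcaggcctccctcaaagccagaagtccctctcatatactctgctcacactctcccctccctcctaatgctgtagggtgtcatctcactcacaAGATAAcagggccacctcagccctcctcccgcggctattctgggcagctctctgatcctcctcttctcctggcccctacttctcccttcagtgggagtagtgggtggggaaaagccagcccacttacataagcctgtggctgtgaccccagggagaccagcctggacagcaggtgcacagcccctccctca
Bmp10 (chr6:87428744-87429043, plus strand): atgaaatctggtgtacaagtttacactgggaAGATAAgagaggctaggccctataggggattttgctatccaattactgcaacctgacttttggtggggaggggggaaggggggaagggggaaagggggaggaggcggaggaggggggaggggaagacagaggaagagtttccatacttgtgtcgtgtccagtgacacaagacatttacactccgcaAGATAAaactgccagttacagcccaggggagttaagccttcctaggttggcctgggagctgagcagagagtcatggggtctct
Hamp (chr7:30943980-30944279, minus strand): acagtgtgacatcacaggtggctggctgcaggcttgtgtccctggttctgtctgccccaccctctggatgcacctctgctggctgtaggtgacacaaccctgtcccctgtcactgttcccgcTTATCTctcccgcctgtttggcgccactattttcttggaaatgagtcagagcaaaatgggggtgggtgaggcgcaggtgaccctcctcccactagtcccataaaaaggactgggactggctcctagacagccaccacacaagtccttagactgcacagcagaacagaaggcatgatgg

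Among the contractile genes, the main probe sets of both atrial myosin light chains were near the top of the scale on knockout replicate 1 and far lower elsewhere. Myl7, the regulatory light chain of atrial myosin, stood at 12.86, 3.90 and 3.71 in the knockout hearts, against 3.59, 3.45 and 3.80 in the wild type hearts. Its signal on knockout replicate 1 was above that of 99.9% of probe sets on that array, and on the other arrays above that of 38.2% to 44.7%. The other 2 knockout hearts lay within 0.45 of all 3 wild type hearts, and the groups overlap.

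Myl4, the essential light chain of atrial myosin, stood at 12.98, 4.83 and 4.29 in the knockout hearts, against 4.87, 4.52 and 4.57 in the wild type hearts. Knockout replicate 1 was 8.36 above the mean of the other 5 arrays, nominally 330-fold. A second Myl4 probe set read 5.40, 4.19 and 4.40 in the knockout hearts, against 4.32, 4.19 and 4.71 in the wild type hearts. It put the same array highest, by far less, so the size of the excess depends on the probe set.

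Mybphl, a relative of the cardiac myosin binding protein C that is enriched in atrial muscle and the conduction system, stood at 9.32, 4.24 and 4.20 in the knockout hearts, against 4.10, 4.37 and 4.47 in the wild type hearts. Knockout replicate 1 was alone at the 96.6th percentile of its array, and the remaining arrays ran from 47.5 to 52.9.

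Of the 21 measured genes for myosin light chains, their kinases and myosin binding proteins, knockout replicate 1 stood at least 1 above every other array at 4, the atrial Myl4, Myl7 and Mybphl and the smooth muscle light chain Myl9 (10.45, against at most 8.64 elsewhere). The ventricular counterparts, named here although outside the naming rule, moved little. Myl2 stood at 13.57, 13.63 and 13.65 in the knockout hearts, against 13.71, 13.71 and 13.71 in the wild type hearts. Myl3 stood at 13.29, 13.37 and 13.39 in the knockout hearts, against 13.41, 13.46 and 13.52 in the wild type hearts. Both were lowest on knockout replicate 1, and both sit near the top of the scale (array maxima 13.66 to 13.78), where differences can be compressed.

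Sln, the sarcolipin gene, showed the widest gap of all genes measured. Its signal was 12.17, 2.68 and 2.42 in the knockout hearts, against 2.77, 2.43 and 2.64 in the wild type hearts. Knockout replicate 1 was 9.58 above the mean of the other arrays, nominally 768-fold. On those arrays it lay in the dim part of the distribution. A ratio over signals that dim describes these probe sets and not numbers of transcripts. A second Sln probe set read 4.45, 2.54 and 2.44 in the knockout hearts, against 2.66, 2.53 and 2.67 in the wild type hearts, again with knockout replicate 1 alone above the rest. Of 12 other calcium cycling genes, 0 stood 1 above the others there. The calcium release channel Ryr2 was at -0.18 relative to the mean of the other 5 arrays, the sodium-calcium exchanger Slc8a1 at 0.18, the calcium channel Cacna1c at -0.30 and Asph at -0.48.

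Fgf12 encodes an intracellular relative of the fibroblast growth factors that binds voltage-gated sodium channels and is not secreted. Its main probe set stood at 7.05, 3.14 and 3.11 in the knockout hearts, against 2.93, 3.05 and 3.23 in the wild type hearts. A second read 5.94, 2.12 and 1.69 in the knockout hearts, against 1.93, 1.73 and 2.07 in the wild type hearts. The excess of knockout replicate 1 over the mean of the others was 3.95 and 4.03 at these probe sets and 2.02 at the third. Among 9 genes of the same family and of sodium channels, 0 stood 1 above the others on that array: Fgf13, the paralog with a clear signal in these hearts, was at -0.16, Fgf11 at 0.34, the pore subunit Scn10a at 0.16 and the beta subunit Scn4b at -0.76.

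Mlana and Tmem163 are members of less settled role in the heart. Mlana, best known as a melanosome protein of pigment cells, stood at 7.56, 3.23 and 2.70 in the knockout hearts, against 2.96, 2.98 and 2.79 in the wild type hearts. Knockout replicate 1 was 4.63 above the mean of the others. Of 11 other pigment cell genes 0 stood 1 above the other arrays there. Their median excess was 0.01, and their values ran from -0.49 to 0.27. Among them were the pigment enzymes Dct (-0.14) and Tyrp1 (0.25), the transporter Oca2 (0.27) and the factor Mitf (-0.49). Tmem163, a zinc transporter of vesicle membranes, stood at 5.44, 2.25 and 2.35 in the knockout hearts, against 2.56, 2.32 and 2.56 in the wild type hearts, so knockout replicate 1 was again the 1 array apart.

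The secreted members were Bmp10, Dkk3 and Hamp. Bmp10, a ligand of the BMP family that acts on endothelium and heart muscle, had the smallest excess among main probe sets. It stood at 5.29, 4.12 and 4.12 in the knockout hearts, against 4.12, 4.07 and 4.22 in the wild type hearts, and those 5 lower values span 0.16. Of 19 other genes of BMP signalling, 0 stood 1 above the other arrays on knockout replicate 1. Within this list the target gene Id2 had the largest excess (0.70), followed by the co-receptor Eng (0.43) and the receptor Acvr2b (0.33). The receptor Acvr2a was lower on that array (-0.33). The BMP target Smad6, counted below with the iron genes, had a larger excess of 1.11.

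Hamp, the gene of the iron hormone hepcidin, is known chiefly from the liver. Its first probe set stood at 5.01, 3.37 and 3.45 in the knockout hearts, against 3.52, 3.42 and 3.42 in the wild type hearts. The dimmer one stood at 5.40, 1.82 and 1.78 in the knockout hearts, against 1.92, 2.16 and 2.11 in the wild type hearts. Probes of the near-identical paralog Hamp2 could share its transcripts, and the main Hamp2 probe set was at 5.47 on knockout replicate 1, against 5.22 to 5.61 elsewhere. Liver genes had a median excess of 0.19 on that array, with Alb at 0.37 and 0 of 6 standing 1 above the others. Of 13 other iron genes 0 did, the largest excess being that of the BMP target Smad6 (1.11, against a margin of 0.95 over the next array).

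Dkk3, a secreted protein of the Dickkopf family, had the highest mean of the main member probe sets outside knockout replicate 1 (5.21, against 4.62 for Myl4). Its main probe set stood at 8.53, 5.70 and 5.22 in the knockout hearts, against 5.47, 5.30 and 4.36 in the wild type hearts. The second read 7.60, 4.84 and 4.44 in the knockout hearts, against 4.86, 4.30 and 3.35 in the wild type hearts. Both probe sets were lowest on wild type replicate 3, and over the 5 arrays without knockout replicate 1 the main one ranged over 1.34, where the other 14 member probe sets ranged over 0.15 to 0.58 and the median probe set of the whole array over 0.35. The Wnt inhibitor genes Sfrp1 (5.64, against 6.59 to 7.20 on the other arrays) and Frzb (5.62, against 6.58 to 7.26) were also lowest on wild type replicate 3. That array has the most probe sets standing apart downward, and the Dkk3 difference is also given without it, after its interval. The other Dickkopf genes measured, Dkk1, Dkk2 and Dkk4, lay within 0.11 of the mean of the other arrays on knockout replicate 1.

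Knockout was then compared with wild type by limma, with p-values adjusted over all 38195 probe sets by the Benjamini-Hochberg method and a threshold of 0.05. With all 6 arrays the 16 differences, knockout minus wild type, were all positive and ran from 0.26 to 3.21, with a median of 1.51 over the 10 main probe sets, against 0.00 over all genes. At each probe set knockout replicate 1 was the highest array and the groups overlapped, while 6.74% of all probe sets had every knockout array above every wild type array and 8.42% the reverse. The knockout mean of Myl7 was 6.82 ± 5.23 and its wild type mean 3.61 ± 0.18 (SD, n = 3 each), so the knockout SD exceeded the difference of 3.21. By limma 0 of the 16 passed at an adjusted p under 0.05, where 0.422% of all probe sets did in either direction and 0.238% upward, and 0 had an unadjusted p under 0.05, where 10.6% did. As the members were chosen on these arrays, nothing is read from that count.

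Without knockout replicate 1 the differences of the atrial genes lay on both sides of 0. The median over the 10 main probe sets was -0.03, against 0.00 over all genes, with 6 of the 16 probe sets positive and 10 negative. By limma 0 of 16 passed at an adjusted p under 0.05 (0.144% of all probe sets did) and 0 had an unadjusted p under 0.05 (8.1% did). Myl7 differed by 0.19 (95% interval -0.12 to 0.50), Myl4 by -0.10 (-0.49 to 0.30), Sln by -0.07 (-0.38 to 0.25) and Mybphl by -0.10 (-0.40 to 0.20). These intervals, from 2 knockout and 3 wild type hearts, do not show that the levels are alike.

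The widest intervals in the comparison without knockout replicate 1 were those of Dkk3, at 0.42 (-0.25 to 1.09) and 0.47 (-0.33 to 1.27) for its 2 probe sets. Without wild type replicate 3 as well, the main one was at 0.07. The dimmer Hamp probe set was the only member whose groups did not overlap, at 1.82 and 1.78 in knockout replicates 2 and 3, against 1.92, 2.16 and 2.11 in the wild type hearts. Its difference was -0.26 (SE 0.12, limma adjusted p = 0.622). Among all probe sets 13% had both knockout arrays below every wild type array, and these Hamp signals lay at or below the 13.5th percentile of their arrays.

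**Figure D2:**
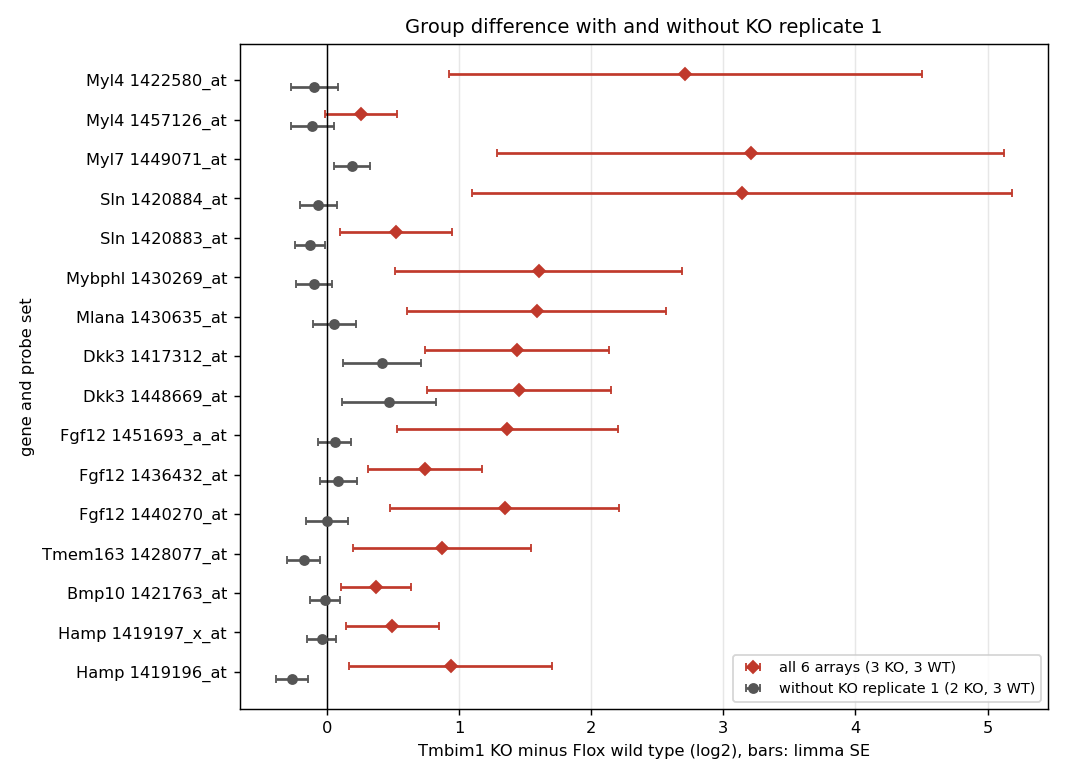
Log2 difference between genotypes, knockout minus wild type (x axis, bars are the limma SE) for the 16 probe sets (y axis), from all 6 arrays (red diamonds) and from the 5 without knockout replicate 1 (grey circles). The red values run from 0.26 to 3.21 with wide errors, and the grey ones from -0.26 to 0.47.

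Other genes used as atrial markers followed the members in part. Of 17 measured, knockout replicate 1 stood above every other array at 11, by at least 1 at 2, and below every other at 0. Among all 18029 genes it did so at 2545, 37 and 2875. The median excess of the 17 over the mean of the other arrays was 0.55, against -0.01 over all genes. Stard10, a lipid transfer protein gene, stood at 8.85, 5.89 and 6.18 in the knockout hearts, against 6.01, 6.24 and 6.89 in the wild type hearts. Adm, the gene of the vasodilator peptide adrenomedullin, stood at 6.97, 5.46 and 5.86 in the knockout hearts, against 5.44, 5.74 and 5.56 in the wild type hearts. Kcnj3, a subunit of the acetylcholine-gated potassium channel of the atria, stood at 7.15, 5.34 and 5.44 in the knockout hearts, against 5.79, 5.53 and 6.26 in the wild type hearts. All 3 were highest on knockout replicate 1. Other Kcnj3 probe sets disagreed on the size and the direction, with an excess between -0.18 and 0.94, while a second Adm probe set had 1.47. The Kcnj3 probe set with the negative excess was very dim, at 1.61 on knockout replicate 1 and 1.55 to 1.98 elsewhere.

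Nppa, which atrial muscle makes at all times and loaded ventricles switch on, had another pattern. It stood at 13.78, 13.63 and 13.36 in the knockout hearts, against 12.67, 12.67 and 11.85 in the wild type hearts, so the groups did not overlap with or without knockout replicate 1. Among all probe sets 6.74% had every knockout array above every wild type array, and 10.6% did without knockout replicate 1. The excess of Nppa on knockout replicate 1 was 0.94, at the maximum of the array, where differences can be compressed. With all arrays it was the 1 member of this list of 17 past the threshold, at 1.19 (SE 0.21, limma adjusted p = 0.0496). Without knockout replicate 1 it was at 1.10 (limma adjusted p = 0.202) and no longer passed. Leaving out any other single array but wild type replicate 3 ended the call too (limma adjusted p = 0.0756 to 0.206), as did a robust prior (0.0568), median centring (0.0528) and the filter on low values (0.0519).

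Myl1, the essential light chain gene of fast skeletal muscle, listed here among both the atrial and the skeletal muscle genes, was the 1 gene of the atrial list past the threshold once knockout replicate 1 was set aside. It stood at 10.88, 8.04 and 7.86 in the knockout hearts, against 9.12, 9.95 and 9.40 in the wild type hearts. Knockout replicates 2 and 3 were the lowest of the 6 arrays and knockout replicate 1 the highest. Without knockout replicate 1 the difference was -1.54 (95% interval -2.02 to -1.06, SE 0.21, limma adjusted p = 0.0365), whereas with it the difference was -0.56 (SE 0.64, limma adjusted p = 0.846). Leaving out any further array ended the call (limma adjusted p = 0.0582 to 0.798), as did a replicate block (0.0550), with the difference between -1.72 and -1.31. Of the 55 probe sets past the threshold without knockout replicate 1, that of Myl1 was the only 1 at which knockout replicate 1 lay beyond the wild type arrays on the far side. At the other 54 it lay on the same side as the remaining knockout arrays. Among other fast skeletal muscle genes, Tnnt3 stood at 3.88 and Pvalb at 5.46 on knockout replicate 1, with margins of 1.22 and 1.20 over the next array. Pvalb ranged over 1.31 on the other 5 arrays. The 11 measured skeletal muscle genes as a list did not share this excess, with a median of -0.0007 (-0.30 to 2.00). Knockout replicate 1 stood above every other array at 4 of the 11 and below at 2, against 15.4% and 15.2% of all probe sets. The skeletal muscle list of 11 had a median difference of -0.09 without that array, with 0 rises and 1 fall, Myl1. In the same comparison 6 of the 17 atrial list genes had an unadjusted p under 0.05, where 8.1% of all probe sets did. Kcnj3 was among them, at -0.47 (limma adjusted p = 0.571), and like Myl1 it was highest on knockout replicate 1 with the other knockout arrays below every wild type array. Of its other probe sets, 2 had the same order, at -0.36 and -0.88 (limma adjusted p = 0.596 and 0.264), and none passed. Without knockout replicate 1, 13% of all probe sets had every knockout array below every wild type array.

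**Figure D3:**
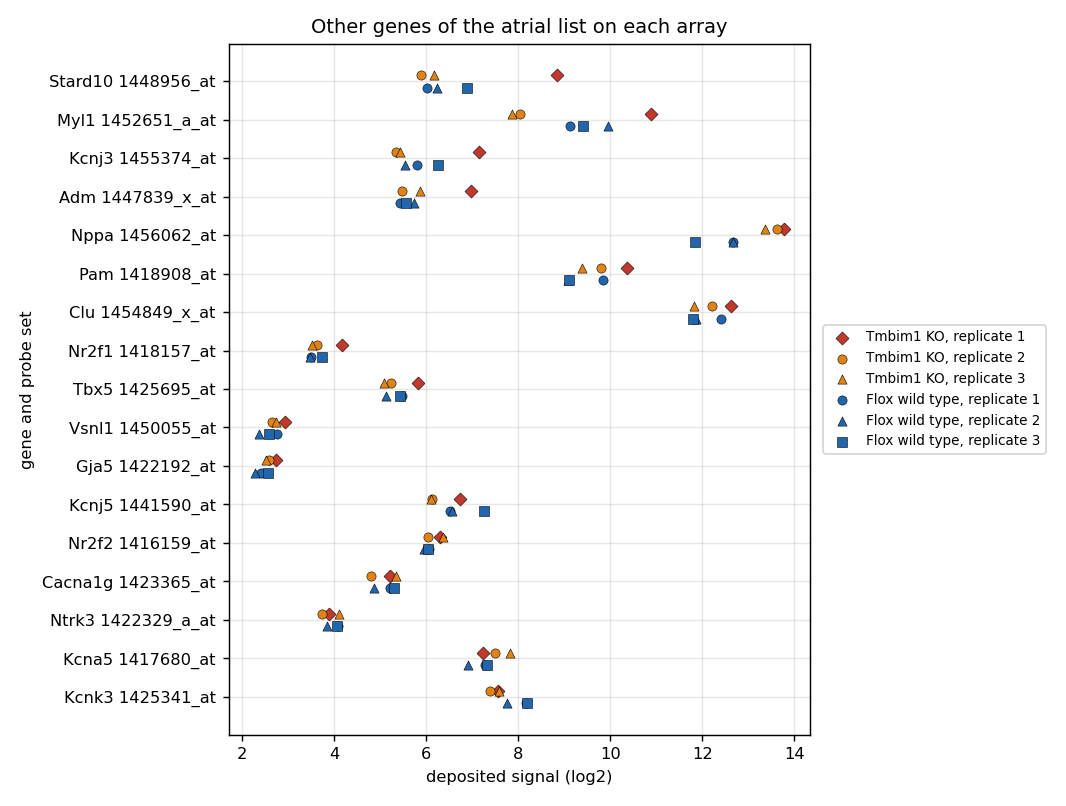
Deposited log2 signal (x axis) of the 17 other genes of the atrial list (y axis, ordered by the excess of knockout replicate 1) on each array, with knockout arrays on the upper line of each row and wild type arrays on the lower. Knockout replicate 1 (red diamond) is highest for Stard10, Myl1, Kcnj3 and Adm, while at Myl1 the other knockout arrays lie below all 3 wild type arrays and at Nppa all 3 knockout arrays lie above them.

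Ventricular genes were not missing from knockout replicate 1. Of 16 measured, knockout replicate 1 stood at least 1 below every other array at 0 and below every other by any amount at 5, where it did so at 15.2% of all probe sets, with a median excess of -0.21. The largest departure was upward, that of Myh7, the 1 gene of the list at which knockout replicate 1 stood above every other array (excess 0.98, margin 0.20). Rpl3l, a ribosomal protein gene of striated muscle, was at -0.90 relative to the mean of the others, the potassium channel subunit Kcne1 at -0.59 and the ventricular transcription factor Irx4 at -0.53. Irx4 stood at 5.86, 6.06 and 6.15 in the knockout hearts, against 6.61, 6.45 and 6.68 in the wild type hearts, and did not pass at -0.55 (limma adjusted p = 0.0887) or, without knockout replicate 1, at -0.47 (limma adjusted p = 0.299). With all arrays 1 gene of the list rose and 1 fell. Myh7 encodes the slow (beta) myosin heavy chain, and rose by 1.36 (SE 0.16, limma adjusted p = 0.00638), a call that was lost without knockout replicate 2 (limma adjusted p = 0.0505). Setting knockout replicate 1 aside left it at 1.29 (SE 0.18, limma adjusted p = 0.0357). That call was lost with a replicate block (limma adjusted p = 0.0930) and when any further array but wild type replicate 3 was left out (0.114 to 0.955). Kcnip2, a potassium channel subunit, fell by 0.64 (SE 0.11, limma adjusted p = 0.0408) and was at -0.63 (limma adjusted p = 0.166) without knockout replicate 1. Its call was lost with a replicate block (limma adjusted p = 0.0567) and when any single array was left out (0.0766 to 0.182). The median difference of the list was -0.27 with all arrays and -0.23 without knockout replicate 1.

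Lists for other tissues and cell types that a dissected heart can carry had median excesses between -0.04 and 0.17 on knockout replicate 1. The median excess was 0.15 for 13 nodal and conduction genes, of which the sinus node factor Shox2 had the largest (5.22, against 3.83 to 4.37 elsewhere). It was 0.17 for 8 smooth muscle genes, 0.16 for 12 genes of mesothelium and epicardium, 0.08 for 12 of neurons, 0.07 for 6 of Schwann cells, -0.02 for 10 of endocardium and endothelium, -0.04 for 12 of all cardiomyocytes, 0.04 for 9 of lung epithelium, 0.08 for 8 of thymus and lymphocytes and -0.04 for 7 of adipocytes. Within the smooth muscle list the contractile genes Cnn1 (8.08, against 4.70 to 5.54), Tagln (9.11, against 7.44 to 8.33) and Acta2 (10.53, against 9.40 to 9.80) were highest on knockout replicate 1. Their defining partner Myh11 was not (6.69, against 6.36 to 7.58), and the list's summed signal was 12.51 there and 11.81 to 12.17 on the other arrays (log2 of the summed linear signals). Among endothelial genes Npr3 (7.01, against 5.44 to 5.91) and Vwf (7.64, against 6.30 to 6.80) stood out in the same way. The part of other cell types in the members' signal was not tested.

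**Figure D4:**
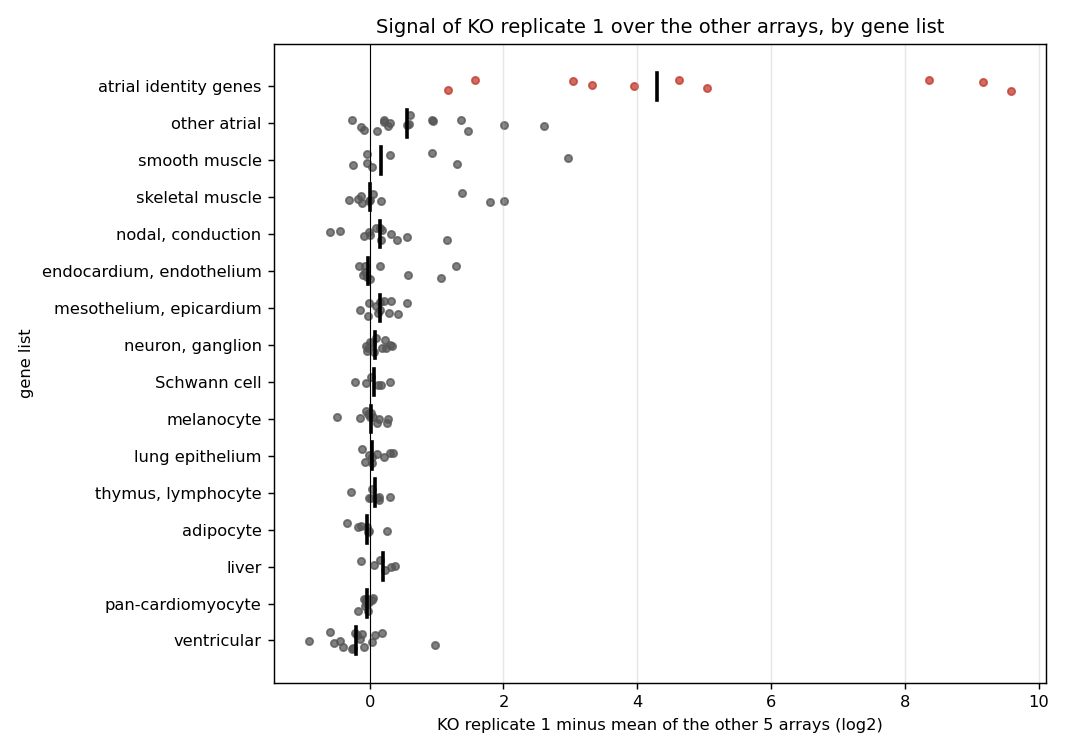
Signal on knockout replicate 1 minus the mean of the other 5 arrays on the log2 scale (x axis) for each measured gene of 16 lists (y axis, 1 point per gene, black bar at the median, vertical scatter added for legibility). The atrial identity genes, chosen for this signal, lie between 1.16 and 9.58, and the medians of the other lists between -0.21 and 0.55.

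The genes most like the members, by the margin of knockout replicate 1 over the highest of the other 5 arrays, were Cnn1 (2.54), Plagl1 (2.39), Cd207 (2.39), Stard10 (1.96), Nap1l5 (1.94), Myl9 (1.81), Synm (1.75), Igf2 (1.72), Ryr3 (1.53), Adamts8 (1.51), Cacna2d2 (1.46) and Vsig4 (1.32). They include a smooth muscle calponin (Cnn1), an intermediate filament protein of muscle (Synm), a calcium release channel (Ryr3), a calcium channel subunit (Cacna2d2), a growth factor (Igf2) and markers of Langerhans cells (Cd207) and of resident macrophages (Vsig4). Cacna2d2 was the most even of them elsewhere, at 4.85 on knockout replicate 1 and 3.29 to 3.39 on the others, while Vsig4 ranged over 2.54 on the other 5 arrays. The genes that stood lowest on knockout replicate 1 did so by less, Akr1c14 by -0.78, Abcb1b by -0.68, Phyhip by -0.67, Tmem267 by -0.65 and Gpr22 by -0.61 relative to the lowest of the other arrays. In all, 36 genes stood at least 1 above the others on knockout replicate 1, predicted genes left out, and the 10 members are among them.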

How the data were processed

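Heart RNA of 6 mice was measured on Affymetrix arrays, 1 per mouse. The authors deposited log2 signals per probe set. The tools RMA and limma are listed per the submitters' processing notes. Their versions are not given in the sources used here. In general RMA corrects background, equalises the distributions of the arrays and summarises probes, so it removes overall shifts. Differences at the dim and bright ends of array signals can be compressed. Scan dates and detection calls were not analysed here.

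Of 38208 rows, 13 controls were left out. The platform annotation gave 34325 of the other 38195 probe sets 1 symbol, 62 several and 3808 none. A gene's main probe set is that with the highest mean. Groups come from the sample titles. Genotypes were compared by limma 3.58.1 in R 4.3.3 (lmFit and eBayes, two-sided, Benjamini-Hochberg over all probe sets), with all arrays and without knockout replicate 1. Lists are described by counts and medians only. Members, lists and alternatives were chosen with earlier results of these data known. The naming rule took the members, the 12 genes with the largest and the 5 with the most negative margin on knockout replicate 1, Tmbim1, and per list up to 4 genes with the largest excess and any past the threshold. Genes outside it are said to be so or follow as paralogs or cell type definers. Tests were tried on simulated data with known changes among 38195 probe sets. With 6 arrays 59 of 67 log2 changes of 1 were recovered but only 9 of 67 of 0.5, and without knockout replicate 1 56 of 67 and 4 of 67. Over all sizes, 3 of 137 and 7 of 132 calls were false. The simulated noise was independent and alike on every array. No simulated array stood apart as knockout replicate 1 does, so these counts need not hold for the members. The series text calls the mice biological samples, and 3 arrays per group limit precision. The imprinted gene list was added after its values were seen. Protein comparisons were not run.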

Additional observations from a re-analysis of the deposited data

How the results depend on the processing

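The count of member probe sets past the limma threshold was 0 under each alternative, with and without knockout replicate 1. Tried in turn were the replicate block, robust and trended priors, weights per array, median centring, quantile normalization done again, a filter above the 40th percentile, 1 probe set per gene, each array left out in turn, and knockout replicate 1 left out with wild type replicate 3. Members below the filter have no value under it. The median difference of the 10 main probe sets was -0.03 to 2.27 with single arrays left out and -0.01 without both knockout replicate 1 and wild type replicate 3. In the comparison without knockout replicate 1 it was -0.068 to 0.068 with a further array left out. There the sign turned under the replicate block for Myl4 (0.011), Sln (0.012) and Fgf12 (-0.013), and with further arrays left out for Myl4 (-0.37 to 0.18), Sln (-0.19 to 0.063), Fgf12 (-0.013 to 0.14), Mlana (-0.21 to 0.32), Hamp (-0.082 to 0.0010) and Bmp10 (-0.051 to 0.026). The excess of knockout replicate 1 moved by less than the SD of the other arrays under a second quantile normalization or median centring, for example 9.56 to 9.61 for Sln.

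Calls over all probe sets numbered 161 with all arrays, 102 with 1 probe set per gene, 38 to 86 with single arrays left out, and 29 without knockout replicate 1 and wild type replicate 3. Without knockout replicate 1 they numbered 55, 13 with the replicate block and 2 to 29 with a further array left out, when fewer arrays remained. With all arrays the calls of Nppa, Kcnip2, Tmbim1 and Myh7 were lost in 9, 8, 2 and 1 of 15 alternatives. Without knockout replicate 1 those of Tmbim1 and Myh7 were lost in 6 and 5 of 13. Deviations of same-numbered arrays correlated at 0.06, 0.14 and 0.02, and those of the other pairs at -0.14 to 0.08. With 3 arrays per group these values cannot decide whether the numbers pair the mice.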

Other observations

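Several imprinted genes, which are expressed mainly from 1 parental copy, were also high on knockout replicate 1. Plagl1, a transcription factor gene, stood at 9.05, 5.98 and 5.58 in the knockout hearts, against 6.14, 6.08 and 6.66 in the wild type hearts. Igf2, a fetal growth factor gene, stood at 8.24, 5.68 and 6.47 in the knockout hearts, against 6.16, 6.26 and 6.52 in the wild type hearts. Nap1l5 stood at 4.86, 2.65 and 2.88 in the knockout hearts, against 2.64, 2.65 and 2.92 in the wild type hearts, and Peg3 at 6.50, 5.33 and 5.25 in the knockout hearts, against 5.04, 5.14 and 5.18 in the wild type hearts. A list of 24 imprinted genes, drawn up after these values were seen, had 22 measured. Knockout replicate 1 stood at least 1 above the other arrays at 4 of them, those named, above by any amount at 9 and below at 5 (15.4% and 15.2% of all probe sets), with a median excess of 0.14. Cdkn1c, another of them, was at -0.42 there. By limma 0 of the 22 passed with all arrays and 0 without knockout replicate 1, where 0.422% and 0.144% of all probe sets did. An unadjusted p under 0.05 was reached by 3 with all arrays and by 4 without that array, against 10.6% and 8.1% of all probe sets. A second, dim probe set of Plagl1 was at 0.26 and one of Igf2 at 0.05, so the excess was read by 1 probe set for each of these genes.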
